A study of Mus musculus with 20 samples.

Results

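The histone cluster genes are the mouse genes whose older symbols start with Hist1h, Hist2h, Hist3h or Hist4h; they encode the linker histone H1 and the core histones H2A, H2B, H3 and H4. A gene was a member if its RefSeq entry carried such a symbol, and its probes were found through the RefSeq accession that the array annotation gives. The reference table held 70 members, of which 47 had a probe among the 20656 named genes on the array and 23 had none. Those without one were Hist1h2ad, Hist1h2ai, Hist1h2aj, Hist1h2al, Hist1h2ao, Hist1h2ap, Hist1h2bf, Hist1h2bh, Hist1h2bj, Hist1h2bk, Hist1h2bl, Hist1h2bn, Hist1h2br, Hist1h3b, Hist1h3e, Hist1h3h, Hist1h4a, Hist1h4b, Hist1h4f, Hist1h4n, Hist2h3c1, Hist2h3c2 and Hist3h2bb. A gene was tested where a probe was marked by the scanner software as well above background in at least 4 of the 20 samples, and 44 members were, of 14455 named genes and 24179 features in all. Of these 44, 38 were well above background in all 20 samples. The current symbols are used below, with the older ones in parentheses.

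Mouse embryonic fibroblasts of a Balb/c background were treated with 150 µM actinonin for 6, 24, 48 or 72 h, while control cells received only ethanol, the carrier, at 3 µl/ml. Actinonin blocks peptide deformylase, which takes the formyl group off the first methionine of proteins made by bacteria and mitochondria. Each of the 5 groups had 4 samples that the labels call independent, 2 labelled with Cy3 and 2 with Cy5, and each sample pooled RNA from 4 plates. The 20 samples were hybridised as pairs on 10 Agilent arrays, 1 sample in each of the 2 colours. All cells, controls included, grew in medium with uridine and were harvested near confluence. The labels give the control as 0 h and no harvest time of its own, so the effect of actinonin and that of time in culture cannot be told apart.

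Histones package DNA into nucleosomes, each made of the core histones H2A, H2B, H3 and H4, while the linker histone H1 binds the DNA between them. The cluster genes are known as replication-dependent: their mRNAs accumulate in S phase and fall at its end, and most end in a stem-loop, bound by Slbp, instead of a poly(A) tail. The labels state that RNA was primed with oligo-dT, a primer that binds poly(A), so the values describe whatever histone mRNA that primer reached. In human cells some cluster genes, such as HIST1H1C and HIST1H2BC, are known to give polyadenylated transcripts as well.

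The promoters of 62 of the 70 members were found in the RefSeq table (build GRCm38.p6), 39 of them of tested members. In the 250 bases before the start, on either strand, CCAAT, the box bound by NF-Y, was present in 82.3% of member promoters and in 34.5% of all 27025. By class it was in all 6 H1, all 18 H2A and all 16 H2B promoters, in 8 of 10 H3 promoters and in 3 of 12 H4 promoters. TATAAA stood in 46.8% of member promoters against 13% of all. The octamer ATTTGCAT, a known element of H2B promoters, was found in 21% of members against 1.61% of all, in 7 H2A and 6 H2B promoters and in no other class. AAACACA, known as the H1 box, was in 5 of 6 H1 promoters, in 14.5% of all members and in 6.22% of all promoters. No match of one motif overlapped a match of another in any member. The stretches below show the 200 bases before the start, 5′ to 3′ on the gene's strand, with these 4 motifs in capitals. H3c8 is shown for the largest fall, and H2bc14 and H1f5 as members of other classes that fell with it. H1f2 is shown for its return by 72 h, and the pair H2ac18 and H2ac19 because the probes of these close copies moved in opposite directions.
H3c8 (chr13:23535218-23535417, plus strand): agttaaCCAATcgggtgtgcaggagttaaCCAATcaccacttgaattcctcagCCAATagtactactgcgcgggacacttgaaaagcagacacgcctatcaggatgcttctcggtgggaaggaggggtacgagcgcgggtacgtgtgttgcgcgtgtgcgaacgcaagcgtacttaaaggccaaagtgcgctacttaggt
H2bc14 (chr13:21721844-21722043, plus strand): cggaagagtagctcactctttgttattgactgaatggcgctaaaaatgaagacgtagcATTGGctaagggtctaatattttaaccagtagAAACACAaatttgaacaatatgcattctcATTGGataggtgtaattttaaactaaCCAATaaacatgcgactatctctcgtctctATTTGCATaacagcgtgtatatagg
H1f5 (chr13:21780626-21780825, minus strand): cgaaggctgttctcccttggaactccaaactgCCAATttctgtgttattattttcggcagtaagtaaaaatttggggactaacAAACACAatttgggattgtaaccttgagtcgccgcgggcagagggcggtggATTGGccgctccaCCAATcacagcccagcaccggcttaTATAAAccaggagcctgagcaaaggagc
H1f2 (chr13:23738607-23738806, plus strand): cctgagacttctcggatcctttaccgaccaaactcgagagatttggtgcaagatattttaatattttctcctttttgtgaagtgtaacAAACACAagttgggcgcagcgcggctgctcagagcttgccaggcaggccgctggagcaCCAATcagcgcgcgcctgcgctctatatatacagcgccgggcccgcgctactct
H2ac18 (chr3:96245297-96245496, plus strand): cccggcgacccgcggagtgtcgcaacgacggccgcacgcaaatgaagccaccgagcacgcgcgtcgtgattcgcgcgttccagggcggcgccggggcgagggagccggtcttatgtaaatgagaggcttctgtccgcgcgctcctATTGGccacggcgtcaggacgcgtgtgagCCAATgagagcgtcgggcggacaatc
H2ac19 (chr3:96240375-96240574, minus strand): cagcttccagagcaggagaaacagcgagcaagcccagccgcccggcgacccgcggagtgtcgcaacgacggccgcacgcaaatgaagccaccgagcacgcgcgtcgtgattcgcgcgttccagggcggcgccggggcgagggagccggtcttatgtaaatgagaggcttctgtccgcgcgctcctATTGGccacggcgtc
H3c8 held 3 CCAAT boxes and none of the other motifs. H2bc14 held 3 CCAAT boxes, 1 octamer and 1 H1 box, and H1f5 held 3 CCAAT boxes, 1 TATAAA and 1 H1 box. H2ac18 and H2ac19 lie on opposite strands and share an unbroken run of 219 bases. Over 260 aligned bases of the table's whole windows, which run past the gene's start, 95.8% were identical. A match is a description of the letters and not a measured site.

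Most histone cluster genes were lower at 24, 48 and 72 h of actinonin than in carrier. At 24 h 30 of 44 fell and 1 rose, at 48 h 30 fell and 3 rose, and at 72 h 32 fell and 2 rose (limma, Benjamini-Hochberg adjusted p under 0.05 over all features). Over all features 19.1% fell and 21.1% rose at 24 h, 20.3% fell and 21.5% rose at 48 h, and 22.6% fell and 25.2% rose at 72 h. In either direction 31, 33 and 34 of the 44 were called at the 3 times, where 40.2%, 41.8% and 47.8% of all features were. The median change of the 44 genes was -0.55, -0.37 and -0.73 (log2) at these times, beside a median over all features that stayed within 0.01 of 0. H3c8 fell most, to 2.66-fold below control at 72 h, while H2ac18 rose 1.85-fold. All times share the same 4 control samples, so their counts are not independent of each other. On slide 2 alone, which holds every 24, 48 and 72 h sample and 2 of the controls, 31, 28 and 30 of the 44 fell at 24, 48 and 72 h. The rises are few, and their number changed by 1 at each of these times when certain single samples were left out, among them the Cy3_1 control at 24 h and each of the 72 h samples at 72 h.

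**Figure D1:**
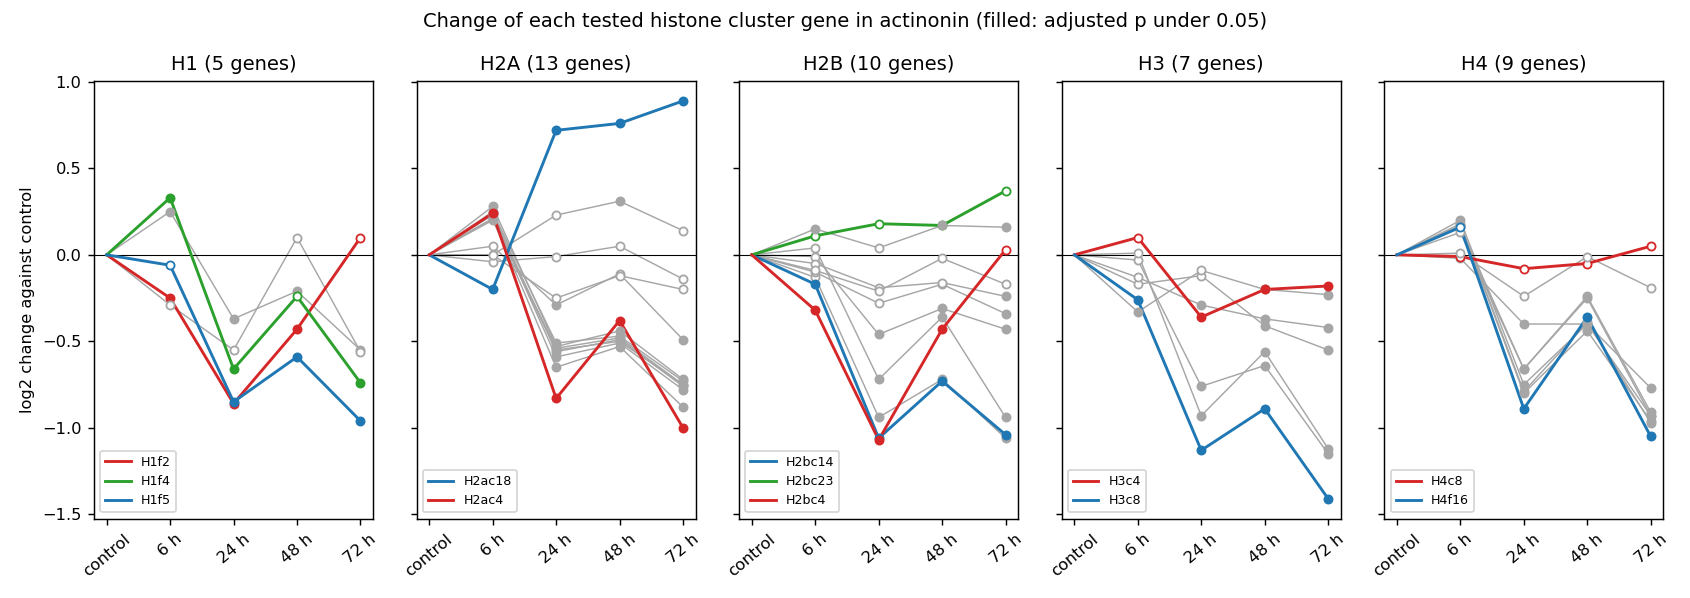
Log2 change against control (y axis) of each of the 44 tested histone cluster genes at 6, 24, 48 and 72 h of actinonin (x axis), in a panel per histone class. Each line is 1 gene, filled points have an adjusted p under 0.05 and open points do not. Most lines drop at 24 h, H2ac18 climbs to 0.89 at 72 h, and H1f2 and H2bc4 return to near 0.

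The median difference from the control mean over the 44 genes was between -0.48 and -0.57 in the 24 h samples, between -0.29 and -0.4 in the 48 h samples and between -0.64 and -0.79 in the 72 h samples. It lay between -0.04 and 0.1 in control samples and between 0 and 0.1 at 6 h. The 3 late groups did not overlap with each other or with the control and 6 h samples in this measure, which is a description of the chosen genes and carries no test. These medians and all levels below are log2 intensities with the fitted dye and slide terms removed, and statements on overlap refer to these.

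**Figure D2:**
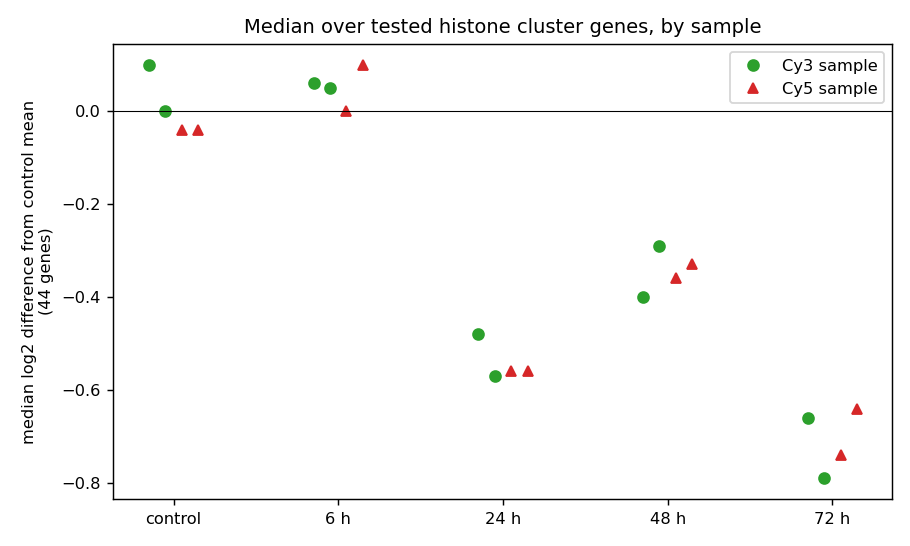
Median over the 44 tested genes of the log2 difference from the control mean (y axis), 1 point per sample, in 5 groups of 4 samples (x axis), circles for Cy3 and triangles for Cy5. The lowest sample is a 72 h one at -0.79, and both dyes lie together within each group.

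In the steps between times, the genes fell from 6 h to 24 h, rose in part from 24 h to 48 h and fell again from 48 h to 72 h. From 6 h to 24 h 29 of 44 fell and 2 rose, where 16.4% of all features fell and 16.5% rose. From 24 h to 48 h 16 rose and 1 fell (H3c1), where 5.7% of all features rose and 6.32% fell. From 48 h to 72 h 25 fell and 2 rose, where 10.3% of all features fell and 12.8% rose. These last steps depend on the scaling: with loess within arrays and no scaling between arrays, 2 members rose from 24 h to 48 h and 13 fell from 48 h to 72 h. The medians of the steps were -0.74, 0.16 and -0.27, and without scaling between arrays they kept their signs. Neighbouring steps share a group of samples and are given side by side only.

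At 6 h the genes did not move one way. Of 44, 13 rose and 6 fell, where 13.6% of all features rose and 11.1% fell, and the median change was 0.01. Of the 13 rises 8 were H2A genes, with changes between 0.2 and 0.28. These calls were fragile: on slide 2 alone 9 rose and 1 fell, and on slide 1 alone, with 2 samples a group, none was called. Without the Cy3_1 sample at 6 h 8 rose, and without Cy3_2 at 6 h, Cy5_1 of the control or Cy5_2 of the control 7 rose. The falls numbered 2 without Cy3_1 of the control or Cy3_2 at 6 h, and 3 without Cy3_2 of the control. In either direction 19 of the 44 were called at 6 h, where 24.8% of all features were. H1f1 and H3c3 lost their call under slide 1 alone, which calls no member, and under no other alternative. H2bc4, H2ac15, H4c4 and H2bc14 lost theirs under 12, 14, 22 and 24 alternatives, and no call reversed.

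Of the 6 H1 genes, 5 were tested and H1f3 (Hist1h1d) was well above background in no sample. H1 binds linker DNA and compacts the fibre. At 24 h 4 of the 5 fell, and at 48 h and 72 h 3 of the 5 did, where 19.1%, 20.3% and 22.6% of all features fell. H1f5 (Hist1h1b) gave 14.02, 13.9, 13.77 and 13.79 in control samples, 13.87, 13.8, 13.8 and 13.82 at 6 h, 13.11, 12.93, 13.01 and 13.04 at 24 h, 13.3, 13.31, 13.27 and 13.24 at 48 h and 12.81, 12.75, 13.01 and 13.06 at 72 h. Every sample from 24 h on lay below every control and 6 h sample, and the change was -0.85 ± 0.08 (SE, adjusted p = 1.73e-07) at 24 h and -0.96 ± 0.08 (SE, adjusted p = 1.86e-08) at 72 h. In H1f4 (Hist1h1e) the levels were 13.13, 13, 12.77 and 12.73 in control samples, 13.37, 13.35, 13.05 and 13.2 at 6 h, 12.09, 12.16, 12.39 and 12.35 at 24 h, 12.55, 12.66, 12.68 and 12.78 at 48 h and 12.2, 11.96, 12.17 and 12.35 at 72 h. The 6 h samples included the highest and the 24 h and 72 h samples did not overlap the control, with changes of 0.33 ± 0.1 (SE, adjusted p = 0.0253), -0.66 ± 0.12 (SE, adjusted p = 0.000307), -0.24 ± 0.11 (SE, adjusted p = 0.0875) and -0.74 ± 0.12 (SE, adjusted p = 7.24e-05) at the 4 times. The level of H1f1 (Hist1h1a) was 9.44, 9.43, 9.4 and 9.31 in control samples, 9.73, 9.66, 9.59 and 9.63 at 6 h, 8.89, 9.03, 9.15 and 9.06 at 24 h, 9.1, 9.22, 9.21 and 9.22 at 48 h and 8.92, 8.83, 8.8 and 8.88 at 72 h. It rose at 6 h by 0.25 ± 0.05 (SE, adjusted p = 0.00148) and was lower afterwards, with a change of -0.55 ± 0.06 (SE, adjusted p = 8.54e-07) at 72 h. Without a slide term in the model its falls at 24 h and 48 h were no longer called (adjusted p = 0.0854 and 0.136).

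H1f2 (Hist1h1c) was back within the control range at 72 h. Its samples read 9.88, 9.52, 9.47 and 9.58 in control samples, 9.51, 9.19, 9.44 and 9.38 at 6 h, 8.73, 8.79, 8.71 and 8.82 at 24 h, 9.14, 9.14, 9.22 and 9.26 at 48 h and 9.81, 9.62, 9.78 and 9.67 at 72 h. It fell by 24 h (-0.86 ± 0.09 SE, adjusted p = 7.55e-07), was partly back at 48 h (-0.43 ± 0.08 SE, adjusted p = 0.000279) and was not called at 72 h (0.1 ± 0.09 SE, adjusted p = 0.389). Its step from 48 h to 72 h was a rise of 0.53 ± 0.08 (SE, adjusted p = 0.000194), and all 72 h samples lay above all 48 h samples. That step's call was lost without a slide term (adjusted p = 0.184), and all samples of both times lie on slide 2. Before the dye and slide terms were removed, the H1f2 controls read 10.65 and 10.19 on slide 1 and 9.54 and 9.56 on slide 2. The 72 h samples then read 9.84, 9.64, 9.76 and 9.65, above the slide 2 controls and below those of slide 1. H1f6 (Hist1h1t), a linker histone of the testis, was not called at any time. Its level was 9.69 in the Cy5_2 sample at 48 h and 8.86 in the Cy3_2 control sample, which share 1 array with the most spots above background, and between 6.77 and 7.64 in the other 18.

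Of 20 H2A genes 13 were tested. H2A pairs with H2B in the nucleosome, and the cluster copies of H2A encode nearly the same protein. At 72 h 9 of the 13 fell, 1 rose and 3 were not called, and at 24 h the counts were the same. Over all features 22.6% fell and 25.2% rose at 72 h, and 19.1% fell and 21.1% rose at 24 h. H2ac4 (Hist1h2ab) had the largest fall among them, -0.83 ± 0.1 (SE, adjusted p = 1.77e-06) at 24 h and -1 ± 0.1 (SE, adjusted p = 1.09e-07) at 72 h. The H2A change differed little between 7 bright probes, a group chosen after their values were seen: H2ac10 (Hist1h2af), H2ac11 (Hist1h2ag), H2ac12 (Hist1h2ah), H2ac15 (Hist1h2ak), H2ac19 (Hist2h2aa2), H2ac20 (Hist2h2ac) and H2ac22 (Hist1h2an). Their mean log2 intensities lay between 16.65 and 17.14, and their changes spanned 0.08 at 6 h (0.2 to 0.28), 0.13 at 24 h (-0.65 to -0.51), 0.09 at 48 h (-0.53 to -0.44) and 0.15 at 72 h (-0.88 to -0.72). As the coding sequences of these copies are close to identical, a probe may read several of them, and the 7 values need not be 7 separate measurements. For H2ac10 the samples gave 17.08, 17.28, 17.28 and 17.13 in control samples, 17.54, 17.55, 17.4 and 17.36 at 6 h, 16.75, 16.68, 16.61 and 16.61 at 24 h, 16.76, 16.53, 16.9 and 16.81 at 48 h and 16.46, 16.43, 16.4 and 16.57 at 72 h. All 6 h samples exceeded all controls and all later samples were below them. Before the dye and slide terms were removed, the Cy3_1 control of H2ac10, on slide 1, read 16.75. The Cy5 samples at 48 h then read 17 and 16.9, above that control. For H2ac20 they gave 17.18, 17.33, 17.28 and 17.26 in control samples, 17.57, 17.65, 17.41 and 17.37 at 6 h, 16.8, 16.77, 16.71 and 16.71 at 24 h, 16.79, 16.55, 16.96 and 16.86 at 48 h and 16.51, 16.49, 16.49 and 16.61 at 72 h. The order of the groups was the same. With the dye and slide terms left in, the Cy3_1 control of H2ac20 read 16.98, below the 17.03 of the Cy5_1 sample at 48 h. The change at 72 h was -0.72 ± 0.08 (SE, adjusted p = 8.2e-07) for H2ac10 and -0.73 ± 0.08 (SE, adjusted p = 6.92e-07) for H2ac20.

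The probe of H2ac18 (Hist2h2aa1) rose while that of its copy H2ac19 (Hist2h2aa2), whose upstream stretch is printed above, fell. The H2ac19 probe is among the 7 bright H2A probes, which may read several copies, so its fall need not be that of H2ac19 alone. H2ac18 measured 9.09, 8.99, 8.98 and 8.84 in control samples, 8.83, 8.64, 8.83 and 8.87 at 6 h, 9.74, 9.65, 9.66 and 9.74 at 24 h, 9.68, 9.84, 9.67 and 9.79 at 48 h and 9.9, 9.8, 9.86 and 9.93 at 72 h. All 24, 48 and 72 h samples lay above all control and 6 h samples, with changes of 0.72 ± 0.07 (SE, adjusted p = 2.88e-07), 0.76 ± 0.06 (SE, adjusted p = 2.19e-08) and 0.89 ± 0.07 (SE, adjusted p = 1.03e-08). H2ac19 measured 16.99, 17.14, 17.2 and 17.05 in control samples, 17.4, 17.39, 17.21 and 17.2 at 6 h, 16.62, 16.52, 16.53 and 16.5 at 24 h, 16.62, 16.46, 16.69 and 16.68 at 48 h and 16.34, 16.29, 16.34 and 16.38 at 72 h. Here all later samples lay below the control and 6 h samples, with changes of -0.54 ± 0.07 (SE, adjusted p = 4.23e-06), -0.48 ± 0.06 (SE, adjusted p = 3.42e-06) and -0.75 ± 0.07 (SE, adjusted p = 4.84e-08). Before the dye and slide terms were removed, the Cy3_1 control of H2ac19, on slide 1, read 16.61. The Cy5 samples at 48 h then read 16.77 and 16.75, above that control. At 6 h H2ac18 was slightly lower (-0.2 ± 0.06 SE, adjusted p = 0.0184), a call lost on slide 2 alone (adjusted p = 0.566). The opposite changes were not set against each other in a test. H2ac18 also differed between slides: before the slide term was removed, the control read 9.89 and 9.77 on slide 1 and 8.99 and 8.84 on slide 2, and the slide 1 controls overlapped the treated samples. On slide 2 alone H2ac18 rose by 0.78, 0.83 and 0.95 at 24, 48 and 72 h (adjusted p = 3.91e-07, 4.14e-08 and 2.93e-08), and without a slide term the change at 24 h was 0.39 (adjusted p = 0.107). The slides also differ in scan and in software version, so which of these moves the level cannot be told apart.

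**Figure D3:**
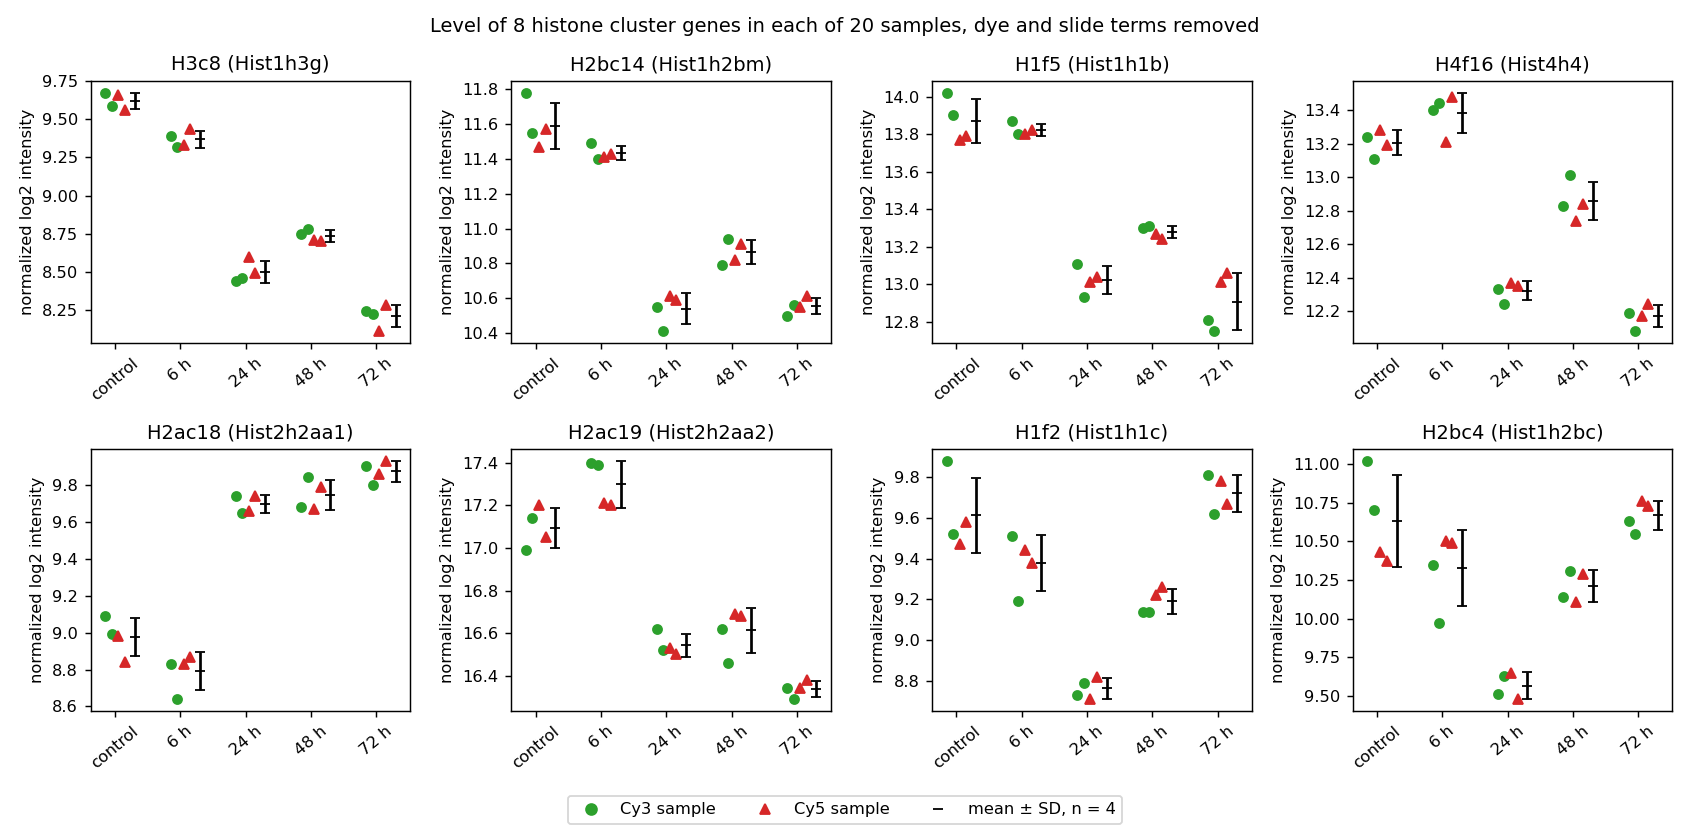
Normalized log2 intensity (y axis) of 8 histone cluster genes in every sample, by group (x axis), with circles for Cy3, triangles for Cy5 and the mean ± SD (n = 4) beside them. H3c8, H2bc14, H1f5, H4f16 and H2ac19 drop by 24 h, H2ac18 rises, and H1f2 and H2bc4 are back among the control values at 72 h.

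Other H2A genes were flatter. H2aw (Hist3h2a), from the third cluster, read 10.68, 10.59, 10.31 and 10.38 in control samples, 10.53, 10.3, 10.67 and 10.44 at 6 h, 10.67, 10.81, 10.74 and 10.65 at 24 h, 10.67, 10.85, 10.76 and 10.93 at 48 h and 10.66, 10.49, 10.69 and 10.69 at 72 h. It was called at 48 h only, 0.31 ± 0.08 (SE, adjusted p = 0.0044), with overlapping groups, and it kept that call under every alternative run. H2ac1 (Hist1h2aa), a testis form, fell at 24 h (-0.29 ± 0.08 SE, adjusted p = 0.00583) and 72 h (-0.49 ± 0.08 SE, adjusted p = 4.09e-05). H2ac21 (Hist2h2ab) was not called at any time, with a change of -0.14 ± 0.1 (SE, adjusted p = 0.269) at 72 h. H2ac8 (Hist1h2ae) was well above background in all 4 control samples, in 2 at 6 h and in none later, so that its later level is only a bound. H2ac6 (Hist1h2ac) was above background in 2 samples and was not tested.

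Of 19 H2B genes 10 were tested, and 5 fell at 24 h, 5 at 48 h and 6 at 72 h. The shares over all features were 19.1%, 20.3% and 22.6%. H2B forms a dimer with H2A. H2bc14 (Hist1h2bm), whose promoter holds the octamer, gave 11.78, 11.55, 11.47 and 11.57 in control samples, 11.49, 11.4, 11.41 and 11.43 at 6 h, 10.55, 10.41, 10.61 and 10.59 at 24 h, 10.79, 10.94, 10.82 and 10.91 at 48 h and 10.5, 10.56, 10.55 and 10.61 at 72 h. No sample from 24 h on reached the control range, with changes of -1.06 ± 0.07 (SE, adjusted p = 4.28e-09), -0.73 ± 0.07 (SE, adjusted p = 6.79e-08) and -1.04 ± 0.07 (SE, adjusted p = 2.51e-09). H2bc1 (Hist1h2ba), annotated as a testis H2B, read 11.05, 10.8, 10.72 and 10.81 in control samples, 10.77, 10.76, 10.62 and 10.77 at 6 h, 9.92, 9.79, 10 and 9.91 at 24 h, 10.03, 10.19, 10.08 and 10.23 at 48 h and 9.76, 9.72, 9.81 and 9.85 at 72 h. It moved in the same way, to -1.06 ± 0.08 (SE, adjusted p = 1.03e-08) at 72 h. Whether this or another H2B probe reads several H2B copies was not tested, so the values need not be those of H2bc1 alone. H2bc18 (Hist2h2bb) changed by -0.72 ± 0.11 (SE, adjusted p = 3.34e-05) at 24 h and -0.94 ± 0.11 (SE, adjusted p = 1.02e-06) at 72 h, and H2bc21 (Hist2h2be) by -0.46 ± 0.07 (SE, adjusted p = 3.81e-05) and -0.43 ± 0.07 (SE, adjusted p = 5.17e-05).

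H2bc4 (Hist1h2bc) had a similar course to H1f2. Its samples gave 11.02, 10.7, 10.43 and 10.37 in control samples, 10.35, 9.97, 10.5 and 10.49 at 6 h, 9.51, 9.63, 9.65 and 9.48 at 24 h, 10.14, 10.31, 10.11 and 10.29 at 48 h and 10.63, 10.55, 10.76 and 10.73 at 72 h. It dropped at 24 h (-1.07 ± 0.13 SE, adjusted p = 4.34e-06), remained lower at 48 h (-0.43 ± 0.12 SE, adjusted p = 0.0065) and lay within the control range at 72 h (0.03 ± 0.13 SE, adjusted p = 0.89). The step from 48 h to 72 h was a rise of 0.46 ± 0.12 (SE, adjusted p = 0.0106). H1f2 and H2bc4 were the 2 members that rose in that step. Without the brightest pair the call at 48 h was lost (adjusted p = 0.0589), and without a slide term that of the last step was (adjusted p = 0.159). All samples of that step lie on slide 2. Before the dye and slide terms were removed, the H2bc4 controls read 11.47 and 10.98 on slide 1 and 10.65 and 10.42 on slide 2. The 72 h samples then read 10.58, 10.5, 10.81 and 10.78, below the slide 1 controls and overlapping those of slide 2. Polyadenylated transcripts were not measured apart from others for any member, and their part in the courses of H1f2 and H2bc4 was not tested.

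H2bc6 (Hist1h2be) was the H2B gene with a called rise, in levels of 7.95, 7.85, 7.97 and 8.1 in control samples, 8.07, 8.18, 8.07 and 8.15 at 6 h, 7.95, 8.06, 7.99 and 8 at 24 h, 8.27, 8.14, 8.12 and 8.02 at 48 h and 8.12, 8.09, 8.13 and 8.15 at 72 h. The groups overlapped with the control, and its changes were 0.15 ± 0.05 (SE, adjusted p = 0.0315) at 6 h, 0.17 ± 0.05 (SE, adjusted p = 0.0162) at 48 h and 0.16 ± 0.06 (SE, adjusted p = 0.0409) at 72 h. These calls were lost under 11, 5 and 17 alternatives. The dim H2bc3 (Hist1h2bb), H2bc8 (Hist1h2bg), H2bc22 (Hist1h2bp) and H2bc23 (Hist1h2bq) had mean levels between 6.48 and 7 in every group and were above background in 16, 14, 19 and 8 samples. H2bc3 and H2bc22 fell at 72 h, with changes of -0.24 ± 0.09 (SE, adjusted p = 0.0429) and -0.34 ± 0.12 (SE, adjusted p = 0.023), and lost these calls under 15 and 3 alternatives. H2bc8 and H2bc23 were not called at 72 h. H2bu2 (Hist3h2ba) was above background in no sample.

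All 7 tested H3 genes, of 12, fell at 48 h and at 72 h, and 5 fell at 24 h. Over all features 20.3%, 22.6% and 19.1% fell at these times. Whether an H3 probe reads several H3 copies was not tested, so the 7 falls need not be 7 separate measurements. The calls of H3c3 at 48 h and at 72 h were lost under 5 and 3 alternatives, that of H3c4 at 72 h under 2 and that of H3c7 at 24 h under 8. H3 carries many of the modified tail residues of chromatin. H3c8 (Hist1h3g) had the smallest p over all groups, with levels of 9.67, 9.59, 9.66 and 9.56 in control samples, 9.39, 9.32, 9.33 and 9.44 at 6 h, 8.44, 8.46, 8.6 and 8.49 at 24 h, 8.75, 8.78, 8.71 and 8.7 at 48 h and 8.24, 8.22, 8.11 and 8.28 at 72 h. Each later group lay below all control samples, 6 h included, with changes of -0.26 ± 0.05 (SE, adjusted p = 0.000418), -1.13 ± 0.06 (SE, adjusted p = 7.16e-11), -0.89 ± 0.05 (SE, adjusted p = 1.78e-10) and -1.41 ± 0.06 (SE, adjusted p = 2.14e-12) at the 4 times. H3c11 (Hist1h3i) gave 9.29, 9.11, 9.09 and 9.15 in control samples, 9.18, 9.24, 9 and 9.17 at 6 h, 8.34, 8.3, 8.54 and 8.47 at 24 h, 8.5, 8.57, 8.54 and 8.5 at 48 h and 8.05, 7.96, 7.87 and 8.19 at 72 h. H3c13 (Hist2h3b) gave 11.63, 11.36, 11.27 and 11.41 in control samples, 11.5, 11.58, 11.22 and 11.42 at 6 h, 10.47, 10.38, 10.66 and 10.47 at 24 h, 10.76, 10.87, 10.87 and 10.95 at 48 h and 10.28, 10.19, 10.38 and 10.36 at 72 h. In both, all samples from 24 h on were below all controls, and the 72 h changes were -1.15 ± 0.09 (SE, adjusted p = 5.76e-09) and -1.12 ± 0.11 (SE, adjusted p = 9.57e-08). H3c3 (Hist1h3c) moved less, with 11.86, 11.83, 11.73 and 11.76 in control samples, 11.48, 11.3, 11.65 and 11.48 at 6 h, 11.78, 11.67, 11.69 and 11.7 at 24 h, 11.55, 11.74, 11.52 and 11.58 at 48 h and 11.51, 11.58, 11.68 and 11.51 at 72 h. It was lowest at 6 h, with a change of -0.33 ± 0.06 (SE, adjusted p = 0.000628), and was not called at 24 h (-0.09 ± 0.07 SE, adjusted p = 0.357). At 72 h the change was -0.23 ± 0.07 (SE, adjusted p = 0.0141) in H3c3, -0.55 ± 0.08 (SE, adjusted p = 9.39e-06) in H3c1 (Hist1h3a), -0.42 ± 0.1 (SE, adjusted p = 0.00204) in H3c7 (Hist1h3f) and -0.18 ± 0.05 (SE, adjusted p = 0.00447) in H3c4 (Hist1h3d), each smaller than in H3c8, H3c11 and H3c13.

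Of 13 H4 genes 9 were tested, and 7 fell at each of 24, 48 and 72 h. The shares of all features that fell were 19.1%, 20.3% and 22.6%. The calls of H4c3 and H4c11 at 48 h were lost under 11 and 2 alternatives. All H4 copies are known to encode 1 protein, and H4 pairs with H3. Whether a probe reads several of these copies was not tested, so the 7 falls need not be 7 separate measurements. H4f16 (Hist4h4), the single gene of its cluster, read 13.24, 13.11, 13.28 and 13.19 in control samples, 13.4, 13.44, 13.21 and 13.48 at 6 h, 12.33, 12.24, 12.37 and 12.35 at 24 h, 12.83, 13.01, 12.74 and 12.84 at 48 h and 12.19, 12.08, 12.17 and 12.24 at 72 h. The 24 h and 72 h samples lay below all others, with a step of -1.05 ± 0.08 (SE, adjusted p = 1.15e-08) from 6 h to 24 h, 0.53 ± 0.07 (SE, adjusted p = 0.000137) from 24 h to 48 h and -0.69 ± 0.07 (SE, adjusted p = 3.49e-06) from 48 h to 72 h. H4c12 (Hist1h4k) read 15.62, 15.51, 15.51 and 15.37 in control samples, 15.82, 15.66, 15.67 and 15.74 at 6 h, 14.78, 14.71, 14.82 and 14.74 at 24 h, 15.02, 15.13, 15.12 and 15.18 at 48 h and 14.66, 14.44, 14.57 and 14.64 at 72 h. It followed the same course, with -0.75 ± 0.07 (SE, adjusted p = 1.55e-07) at 24 h and -0.93 ± 0.07 (SE, adjusted p = 5.02e-09) at 72 h. The other H4 genes that fell, H4c3 (Hist1h4c), H4c4 (Hist1h4d), H4c11 (Hist1h4j), H4c14 (Hist2h4) and H4c17 (Hist1h4m), had changes between -0.77 and -0.97 at 72 h. H4c8 (Hist1h4h) was not called, with 0.05 ± 0.1 (SE, adjusted p = 0.701) at 72 h.

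Probes of 1 gene did not always move alike. For H4c9 (Hist1h4i) the brighter probe was not called at 72 h, at -0.19 (adjusted p = 0.128 in the fit per probe), while its second probe fell by 1.02 (adjusted p = 7e-08). H2ac15 and H4c12 had second probes that fell as well, with changes of -0.96 and -0.98 at 72 h beside -0.75 and -0.93 for the probes used.

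Genes around the histone supply moved as follows, in lists chosen with earlier results of these data known. Of 45 tested genes of DNA replication and S phase, 17, 19, 28 and 33 fell at 6, 24, 48 and 72 h. At most 4 rose, and the medians were -0.11, -0.1, -0.18 and -0.27. The falls are 37.8%, 42.2%, 62.2% and 73.3% of the list, where 11.1%, 19.1%, 20.3% and 22.6% of all features fell. Over all features 13.6%, 21.1%, 21.5% and 25.2% rose at the same times. Without scaling between arrays 9 of the replication genes fell at 24 h and 19 at 72 h. All 24 mitosis genes fell at 24, 48 and 72 h, with medians of -1.04, -0.67 and -1.02. The histone cluster medians of -0.55, -0.37 and -0.73 were lowest at 72 h, while the mitotic medians at 24 h and 72 h were nearly the same. Among the replication genes Ccna2, cyclin A2, changed by -1.17 ± 0.06 (SE, adjusted p = 3.24e-11) at 24 h and -1.23 ± 0.06 (SE, adjusted p = 7.86e-12) at 72 h. Tk1, thymidine kinase, changed by -0.99 ± 0.05 (SE, adjusted p = 2.48e-11), Rrm1, a subunit of ribonucleotide reductase, by -0.81 ± 0.05 (SE, adjusted p = 4.38e-10), and Cdc6, which loads the replicative helicase, by -0.98 ± 0.06 (SE, adjusted p = 6.9e-10) at 72 h. Of the mitosis genes, Birc5 changed by -1.35 ± 0.05 (SE, adjusted p = 1.04e-12), Plk1 by -1.33 ± 0.06 (SE, adjusted p = 8.5e-12), Cdc20 by -1.25 ± 0.06 (SE, adjusted p = 1.05e-11) and Kif23 by -1.13 ± 0.05 (SE, adjusted p = 9.13e-12) at 72 h. In a bulk sample, fewer cells in S phase and less histone mRNA per cell cannot be told apart, and the part of cell cycle genes in the histone values was not tested.

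Of 21 tested genes of histone mRNA transcription and 3-prime processing, 2, 5, 7 and 7 fell and 4, 3, 3 and 2 rose at 6, 24, 48 and 72 h. The falls are 9.52%, 23.8%, 33.3% and 33.3% of the list, where 11.1%, 19.1%, 20.3% and 22.6% of all features fell. The rises are 19%, 14.3%, 14.3% and 9.52%, where 13.6%, 21.1%, 21.5% and 25.2% of all features rose. The genes named here are those with the smallest adjusted p at 72 h or set by name, and the one with the highest change, added after its value was seen. Slbp, the stem-loop binding protein, changed by -0.38 ± 0.06 (SE, adjusted p = 6.65e-05) at 6 h and -0.53 ± 0.07 (SE, adjusted p = 3.2e-06) at 72 h. Lsm11, of the U7 snRNP that cuts the 3-prime end, was not called at 6 h (0.17 ± 0.07 SE, adjusted p = 0.0783) and changed by -0.74 ± 0.08 (SE, adjusted p = 6.13e-07) at 72 h. Upf1, a helicase of histone mRNA decay, changed by -0.59 ± 0.06 (SE, adjusted p = 6e-07), and Srrt, a partner of the cap-binding complex, by -0.43 ± 0.06 (SE, adjusted p = 9.45e-06). Tut4, a uridylyltransferase, rose by 0.5 ± 0.08 (SE, adjusted p = 5.74e-05) at 72 h. Of 25 histone chaperones and deposition factors 9 fell and 9 rose at 72 h, with a median of -0.03. That is 36% in each direction, where 22.6% of all features fell and 25.2% rose. Asf1b, an H3-H4 chaperone of dividing cells, changed by -1.22 ± 0.06 (SE, adjusted p = 4.56e-11), Hat1, which acetylates new H4, by -0.54 ± 0.05 (SE, adjusted p = 1.97e-07), and Hjurp, which loads Cenpa at centromeres, by -0.65 ± 0.07 (SE, adjusted p = 4.61e-07). Ipo4, an importin that binds H3-H4, rose by 0.38 ± 0.08 (SE, adjusted p = 0.000698) at 72 h and was the highest of the list.

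The 15 tested histone variants outside the clusters, whose mRNAs are polyadenylated in general, were mixed. At 24 h 9 fell and none rose, at 48 h 9 fell and none rose, and at 72 h 10 fell and 3 rose. The falls are 60%, 60% and 66.7% of the list, where 19.1%, 20.3% and 22.6% of all features fell. Over all features 21.1%, 21.5% and 25.2% rose at these times, beside 20% of the list at 72 h. Cenpa, the centromeric H3, changed by -1.27 ± 0.04 (SE, adjusted p = 1.69e-12) at 24 h and -1.22 ± 0.04 (SE, adjusted p = 7.58e-13) at 72 h. H2ax, which is phosphorylated at DNA breaks, changed by -0.57 ± 0.06 (SE, adjusted p = 3.95e-07), H2aj by -0.7 ± 0.08 (SE, adjusted p = 6.36e-07) and H2az1, found at promoters, by -0.38 ± 0.06 (SE, adjusted p = 2.49e-05). The H2aj probe had a control mean of 17.11 and changes of 0.24, -0.51 and -0.39 at 6, 24 and 48 h. This level and course are close to those of the bright H2A probes of the clusters. Whether the H2aj probe reads cluster copies was not tested, so its fall need not be that of H2aj alone. H3f3b, a gene for replication-independent H3.3, rose by 0.33 ± 0.04 (SE, adjusted p = 6.74e-06) at 72 h, whereas H3f3a, the other H3.3 gene, had a change of -0.19 ± 0.07 (SE, adjusted p = 0.0268). H1f0, a linker histone of resting cells, rose by 0.6 ± 0.06 (SE, adjusted p = 1.39e-06) at 6 h and was not called at 72 h (0.08 ± 0.07 SE, adjusted p = 0.413). Of 21 genes of cell cycle arrest and quiescence 10 fell and 3 rose at 72 h. These are 47.6% and 14.3%, where 22.6% of all features fell and 25.2% rose. The cyclin-dependent kinase inhibitors Cdkn2d and Cdkn2c changed by -1.11 ± 0.09 (SE, adjusted p = 2.21e-08) and -0.73 ± 0.08 (SE, adjusted p = 5.38e-07), while Sesn2, a stress-induced sestrin, rose by 0.62 ± 0.07 (SE, adjusted p = 1.04e-06) and Sesn1 changed by -0.47 ± 0.07 (SE, adjusted p = 1.66e-05).

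**Figure D4:**
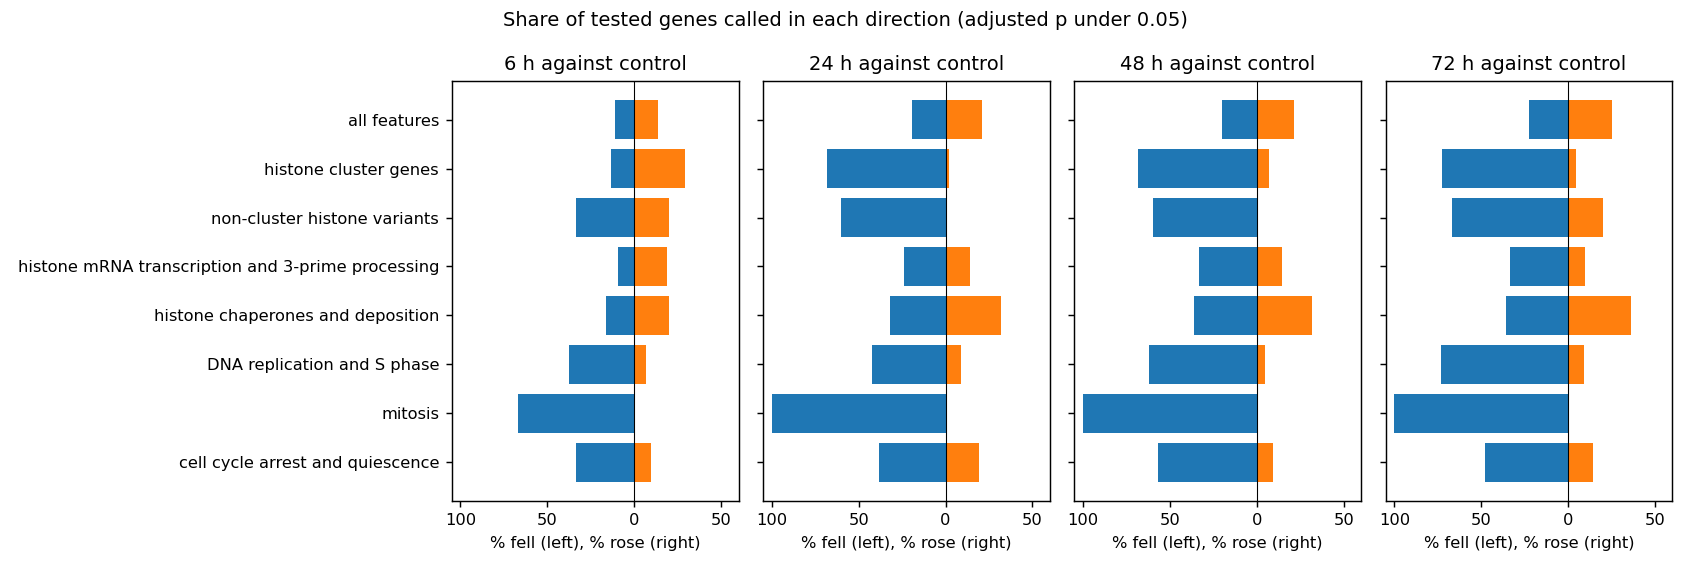
Percentage of tested genes that fell (left of 0) or rose (right of 0) against control at 6, 24, 48 and 72 h, in a panel per time, for all 24179 features, the 44 histone cluster genes and 6 lists of related genes. Falls reach 100% in mitosis from 24 h on and 72.7% in the histone cluster genes at 72 h, against 22.6% of all features.

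Spots well above background made up 50.8% to 58.7% of spots in 18 samples and 66.4% and 70.5% in the pair on the brightest array, the Cy3_2 control and the Cy5_2 sample at 48 h. Without that array 24 h, 48 h and 72 h kept at least 28 falls among the members. Of 13 fibroblast markers 12 were above background in all 20 samples. Many of them changed as well: 3, 10, 12 and 8 of the 13 fell at 6, 24, 48 and 72 h, and 1 rose at 72 h. Their medians were -0.19, -0.48, -0.83 and -0.35. Over all features 11.1%, 19.1%, 20.3% and 22.6% fell at these times. Of 9 macrophage and leukocyte markers 4 (Csf1r, Cd14, Itgam and Fcer1g) were above background in all 20, as were 2 of 6 endothelial (Pecam1 and Kdr), 2 of 6 epithelial (Krt5 and Krt14), 2 of 4 neural (Tubb3 and Map2), and none of the 4 muscle and 3 adipocyte markers. Ptprc, Cdh5 and Krt8 were above it in no sample. At 72 h, 2 of 6 tested macrophage and leukocyte markers fell, Itgam and Cd14, the latter with a change of -1.35 ± 0.08 (SE, adjusted p = 5.03e-10), as did 1 of 2 endothelial, 1 of 3 neural and the 1 tested adipocyte marker, Fabp4, with -1.06 ± 0.08 (SE, adjusted p = 2.9e-09). None of these rose, and no epithelial or muscle marker was called. The part of these markers in the histone values was not tested.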

How the data were processed

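Gene expression was measured on 2-colour Agilent arrays in 20 mouse embryonic fibroblast samples. The deposited files are scanner output, and the intensity columns used were, per the file headers, the median spot and median local background of each sample's own channel (Feature Extraction 10.7.3.1 for slide 1 and 11.0.1.1 for slide 2). The deposited series table holds log2 values that the authors made, per the submitters' processing notes with R 2.15 and limma, and served as an alternative. Intensities were corrected with normexp (offset 50), loess-normalized within arrays and scaled between arrays (Aquantile) in limma 3.58.1 under R 4.3.3. Each channel was fitted with group, dye and slide, taking arrays as random blocks (correlation 0.249), and log2 changes were tested by limma's moderated test with Benjamini-Hochberg adjustment over 24179 features. Probes entered the test with at least 4 samples well above background and at most 2 missing values, and the brightest kept probe stood for its gene. Genes were named through RefSeq accessions (21461 of 22765 matched) with the annotation of slide 2, since 722 probes are named otherwise in that of slide 1. The 2 slides also differ in scan and in software version, which cannot be told apart. The number of arrays limits the precision. On simulated data for 72 h against control (24179 features), 81 of 100 genes changed by 0.5 (log2) and 96 of 100 changed by 1 were recovered, with 9 false calls. The simulation drew normal noise and changed only these genes, at 72 h alone. In the data 47.8% of all features were called at 72 h, so these rates need not hold there. Members and lists were chosen with earlier results of these data known. Values in every sample are given for the 4 members with the smallest p over all groups and for up to 4 called rises and falls with the largest change at each time against control; other members that a result turns on, H1f5 and H2ac19, were added after their values were seen. Alternatives were other normalizations, filters, probe rules, slides, model terms and leaving out each sample.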

Additional observations from a re-analysis of the deposited data

Results flagged for a closer look

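In 10 of the 220 sets of 4 samples examined (44 genes in 5 groups), 1 sample stood far from the other 3 by Dixon's test; chance alone gives about 1 in 20. The widest gap was in H1f6, which read 9.69 in the Cy5_2 sample of 48 h and 6.93 to 7.03 in the other 3; without the brightest array its change at 48 h was -0.01. H4c3 read 9.97 in the Cy3_1 control sample and 9.65 to 9.68 in the others. Among H2B genes, H2bc18 read 9.66 in the Cy3_2 sample of 24 h against 9.77 to 9.79, and 9.91 in the Cy3_1 sample of 48 h against 10.17 to 10.2. H2bc21 read 7.34 in the Cy3_2 sample of 72 h against 7.27 to 7.28, H2bc3 read 6.74 in the Cy5_1 sample of 48 h against 6.87 to 6.89, and H2bc1 read 10.62 in the Cy5_1 sample of 6 h against 10.76 to 10.77. H2aw read 10.49 in the Cy3_2 sample of 72 h against 10.66 to 10.69, H3c7 read 8.21 in the Cy3_1 sample of 72 h against 8.32 to 8.33, and H1f1 read 9.1 in the Cy3_1 sample of 48 h against 9.21 to 9.22.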

How the results depend on the processing

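The falls of the histone cluster genes at 24, 48 and 72 h kept their direction and their number within 1.5 times under every alternative run: 30 to 32, 28 to 31 and 30 to 34 fell, and 29 to 32, 27 to 31 and 30 to 33 with 1 sample left out. Of the members called at these times, 27 of 31, 27 of 33 and 29 of 34 kept their call under all alternatives, and no call reversed. The 6 h counts did not hold: 0 rose and 0 fell on slide 1 alone (fitted without the random block), 9 rose and 1 fell on slide 2 alone (median 0.09), 2 rose and 2 fell with only the groups compared, and 3 fell without the random block and without a slide term; with 1 sample left out 7 to 15 rose and 2 to 6 fell, with a median of 0 to 0.06. The few rises depended on the setting. At 24 h 2 rose on slide 2 alone and 0 without a slide term (1 to 2 with 1 sample left out). At 48 h 2 to 3 did so with 1 sample left out. At 72 h 1 rose, in place of 2, with no scaling between arrays, no background subtraction, no filter, the authors' deposited values, only the groups compared, no random block, no slide term and without the brightest pair, and 1 to 2 with 1 sample left out. Without a slide term the medians were -0.45 at 24 h, -0.62 at 72 h and -0.68 for 24 h against 6 h. Left-out samples gave medians of -0.58 to -0.49, -0.39 to -0.32 and -0.77 to -0.68 at 24, 48 and 72 h. For 24 h against 6 h, 1 rose with no scaling between arrays and with only the groups compared; left-out samples gave 1 to 3 rises, 29 to 30 falls and medians of -0.75 to -0.68. For 48 h against 24 h, 2 rose and 0 fell with no scaling between arrays, 0 fell with only the groups compared and 9 rose without a slide term; left-out samples gave 11 to 18 rises, 1 fall and medians of 0.15 to 0.17. For 72 h against 48 h, 13 fell with no scaling between arrays and 0 rose without a slide term; left-out samples gave 2 rises, 23 to 26 falls and medians of -0.33 to -0.23. The cause of these shifts was not tested.

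Among the lists, no scaling between arrays gave the following. Of the replication genes 2 rose and 9 fell at 24 h (median -0.06), 1 rose at 48 h and 19 fell at 72 h. Of the mitosis genes 9 fell at 6 h, and their median at 24 h was -1.01. Of the chaperones 3 rose and 4 fell at 24 h (median 0.08), with a median of -0.01 at 72 h. Of the processing genes 3 fell at 24 h (median -0.03), with a median of -0.05 at 72 h. Of the arrest genes 4 fell at 24 h and 6 at 72 h, and of the variants 1 rose at 72 h, with a median of -0.07 at 6 h. With quantile scaling 1 variant rose at 48 h, and the replication median at 6 h was -0.13. No scaling moved the median of all features by more than 0.02.

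Same-numbered samples of different groups did not deviate together: 1 of 40 pairs correlated above 0.1, from -0.55 to 0.18 (median -0.04). With the replicate block 12 members rose and 7 fell at 6 h, 30 fell at 24 h, 30 at 48 h and 31 at 72 h, and the 3 steps gave 29 falls, 16 rises and 25 falls. Signal over background limits the 6 tested members that were not above it in all samples.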
